A study of Xenopus laevis with 6 samples.

Results

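The cytoplasmic ribosomal proteins are described here as they were measured in the brain of *Xenopus laevis* tadpoles given leptin. A gene was counted as a member if the array annotation gave its probe set exactly 1 symbol, and if that symbol started with *rpl* or *rps* and a digit, started with *rplp*, or was *rpsa*. The *rps6k* kinases were left out. This rule, which uses names and no measured value, took in 90 of the 11303 genes that the array represents with 1 symbol, and 149 of the 32539 probe sets that are no array controls. Where a gene had several probe sets, the one with the highest mean signal stood for it.

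Tadpoles at NF stage 54 were injected into the brain ventricles (i.c.v.) with rxLeptin, a recombinant leptin of the frog itself, at 20 ng/g BW, or with 0.6% saline, and tissue was taken 2 h later. Each of the 3 rxLeptin arrays and each of the 3 saline arrays held RNA from a pool of 3 brains, so that differences between single tadpoles were not measured. The dissected piece was the preoptic area and hypothalamus, to which the sample labels add the pituitary. Transcripts of the pituitary hormone genes *pomc.L* and *gh1.S*, at mean log2 values of 13.57 and 13.35, were well within the range of the arrays. They were among the 3 of 19 listed hypothalamus and pituitary genes with a mean above 13, and the median of the 19 means was 8.86. In such a mixed piece of tissue, fewer cells of a type and less RNA per cell cannot be told apart.

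Ribosomal proteins wrap and stabilize the ribosomal RNA of the small subunit, which reads the mRNA, and of the large subunit, which joins the amino acids. Most of them are made from mRNAs with a 5′ terminal oligopyrimidine (TOP) tract, a short run of pyrimidines through which the kinase mTOR sets their translation, so that ribosome production can change while these mRNAs stay level. *X. laevis* is an allotetraploid frog, and many of its genes are present as an L and an S copy, named for the longer and the shorter chromosome of each pair.

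Of the 90 genes, 49 encode proteins of the large subunit, 4 encode the P proteins of its stalk and 33 encode proteins of the small subunit. A further 3 are paralogs (*rpl22l1.L*, *rpl3l.L* and *rpl7l1.L*), and 1 bears a name given to a pseudogene in humans (*rps28p9.S*). There were 44 L copies, 43 S copies and 3 genes without a copy letter. Values are log2 expression values, and 78 of the 90 genes had a mean above 13 on a scale that ran between 2.96 and 15.2 in the whole table. Probe sets at the top of this scale can understate a difference in mRNA, and the size of that effect was not tested.

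Ribosomal protein mRNAs were slightly lower on the rxLeptin arrays than on the saline arrays, which is given as a description with no test over the group. The mean of the rxLeptin arrays was below that of the saline arrays in 76 of the 90 genes and above it in 14. The share that was lower, 84.4%, stands beside 56.5% of all represented genes. The median difference between the plain means of the groups, rxLeptin minus saline, was -0.092 on the log2 scale, or 6.19% lower, with quartiles of -0.13 and -0.040. Over all represented genes the median was -0.033, with quartiles of -0.17 and 0.12. The differences were small in every gene. In 81 of the 90 genes they were at most 0.2 in either direction, and the whole range ran from -0.33 in *rps15.L* to 0.26 in *rps4x.S*.

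In 40 of the 90 genes every rxLeptin array was below every saline array, and in 3 (*rpl29.S*, *rpl7a.S* and *rpsa.S*) every rxLeptin array was above. The share of all represented genes that did so was 16.6% for the lower direction and 11.1% for the higher. In the remaining 47 genes the arrays of the groups overlapped. The 40 genes without overlap had differences between -0.33 and -0.036, so some of these gaps were narrow. The replicate arrays lay close together, with a median SD over the members of 0.035 among the rxLeptin arrays and 0.073 among the saline arrays.

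**Figure D1:**
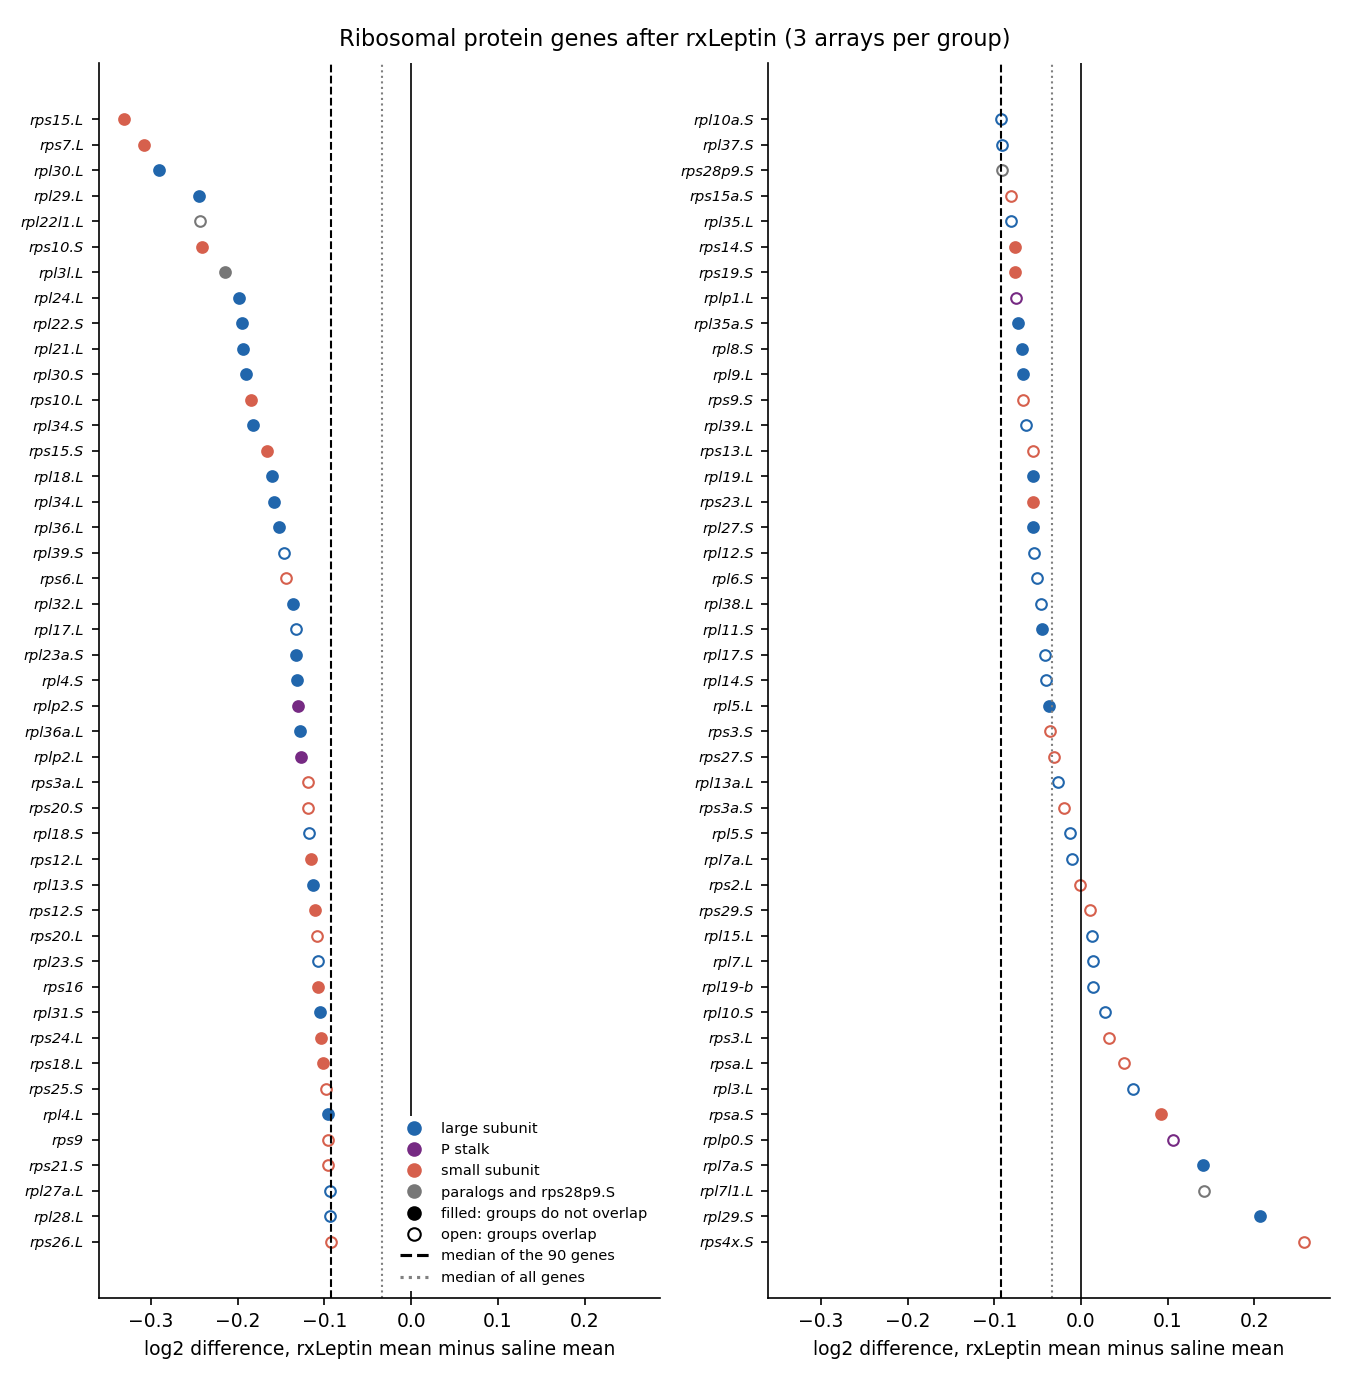
Difference between the group means, rxLeptin minus saline, on the log2 scale (x axis) for each of the 90 ribosomal protein genes (y axis, in order of the difference), coloured by subunit. Filled points are the 43 genes whose arrays do not overlap between the groups, 40 of them lower, and the dashed line at -0.092 and the dotted line at -0.033 are the medians of these genes and of all genes.

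Genes outside the group with a mean above 13 were counted in the same way, though they were not matched in signal, since the median of their means was 13.49 and that of the ribosomal protein genes above 13 was 14.38. Of the 218 other genes with a mean above 13, 90 had a lower mean on the rxLeptin arrays and 128 a higher one, with a median difference of 0.046. Among the ribosomal protein genes with a mean above 13, 68 of 78 were lower, with a median of -0.093. Without saline array 1 the 218 other genes had a median of 0.0091, with 99 lower. The 78 ribosomal protein genes then had a median of -0.060, with 70 lower. The 12 ribosomal protein genes with a lower signal had a median of -0.091, with 8 of them lower.

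The difference was uneven among the saline arrays. Relative to each gene's mean over the 6 arrays, the members had a median of -0.062, -0.054 and -0.0077 on rxLeptin arrays 1, 2 and 3, against 0.098, 0.021 and 0.013 on saline arrays 1, 2 and 3. Saline array 1 thus stood highest, and it held the highest value of 59 of the 90 genes. It also held the highest value of 4465 of all 11303 represented genes. The rxLeptin mean minus the value on saline array 1 had a median of -0.15, and the same against saline arrays 2 and 3 had medians of -0.065 and -0.058, where all represented genes had medians of -0.084, -0.012 and -0.015. With saline array 1 left out, the median of the members was -0.057, that of all genes was -0.0090, and 77 of the 90 members were lower.

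Control probe sets for RNA quality also differed between the arrays, most of all on saline array 1. These compare the 3′ end of a control transcript with a position farther upstream, and a larger gap is seen where RNA is broken or copied less completely. For *actin* the 3′ signal exceeded the middle signal by 0.67, 0.60 and 0.66 on the rxLeptin arrays and by 2.83, 1.61 and 0.77 on saline arrays 1, 2 and 3. For *ef1a* the 3′ signal exceeded the 5′ signal by 2.93, 2.83 and 3.24 on the rxLeptin arrays and by 4.47, 3.72 and 3.05 on the saline arrays. For *gapdh* the 3′ signal exceeded the 5′ signal by 1.11, 0.94 and 0.93 on the rxLeptin arrays and by 2.71, 1.18 and 1.02 on the saline arrays. Saline array 1 had the largest gap in all 3 controls. Saline array 2 also exceeded every rxLeptin array in all 3, and for *actin* every saline array exceeded every rxLeptin array. Leaving out saline array 1 therefore does not remove this difference between the groups. With the *actin* gap as a covariate, the median of the members was -0.045 and that of all genes 0.0029, with 72 members lower. The part of RNA quality in the difference was not tested beyond these values.

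Lists of marker genes for other tissues and cell types were read on the same arrays. Median differences were 0.036 for 17 neuron genes, 0.060 for 17 glia and progenitor genes and 0.062 for 5 oligodendroglia genes. They were 0.011 for 15 blood genes, 0.035 for 7 microglia and leukocyte genes and 0.11 for 10 vessel and meninges genes. Of the neuron genes 1 was lower and 4 higher without overlap. Of the glia and progenitor genes 6 were lower and 1 higher without overlap, beside 16.6% and 11.1% of all represented genes. Their median without saline array 1 was -0.019, and of 11 tested 4 rose and 1 fell. Of 5 tested vessel and meninges genes 4 rose and 1 fell. Of 19 hypothalamus and pituitary genes 15 were lower, with a median of -0.20, and 4 were lower and 0 higher without overlap. Over all represented genes 56.5% were lower, 16.6% were lower without overlap and 11.1% were higher without overlap. Of the 10 that were tested 2 rose and 3 fell, beside 23.1% in each direction over all tested probe sets. The mean of this list lay between 8.64 and 8.95 on the rxLeptin arrays and between 8.92 and 9.09 on the saline arrays, and without rxLeptin array 3 its median was -0.10, with 13 lower. Of 14 skeletal muscle genes 11 were lower, with a median of -0.31, and 7 were lower and 1 higher without overlap. Of the 11 that were tested 8 fell and 3 were not called, beside falls in 23.1% of all tested probe sets. The mean of the muscle list lay between 6.55 and 6.70 on the rxLeptin arrays and between 6.81 and 6.92 on the saline arrays, without overlap. The part of these tissues and cell types in the difference of the ribosomal protein genes was not tested.

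**Figure D2:**
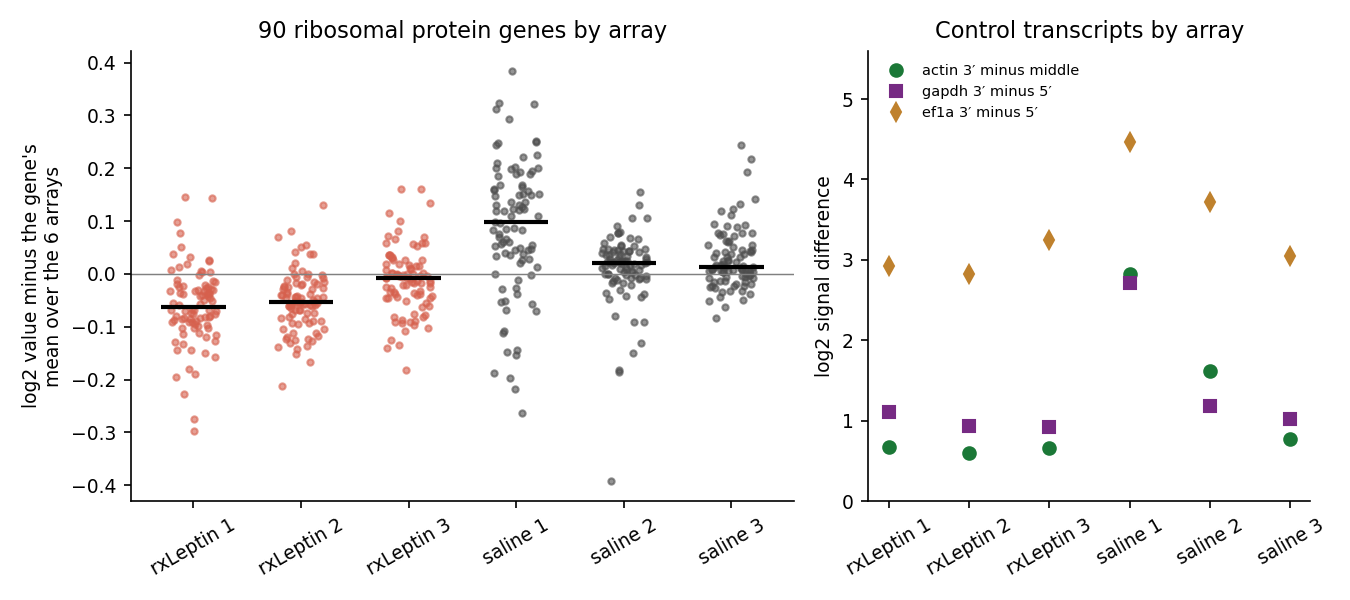
Left, log2 value minus the gene's mean over the 6 arrays (y axis) for the 90 ribosomal protein genes on each rxLeptin array and each saline array (x axis), with the median of the 90 genes as a bar. Right, log2 signal difference between the 3′ end and an upstream position of 3 control transcripts on the same arrays, where saline array 1 has the largest gap in each of the 3.

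Few members entered the test across probe sets, because it kept probe sets that varied most over the 6 arrays. The filter required an interquartile range above 0.17. It passed the representative probe set of 10 of the 90 genes, or 11.1%, against 47.5% of all represented genes. Of these 10 genes, 3 fell (*rps15.L*, *rpl30.L* and *rps10.S*), 1 rose (*rps4x.S*) and 6 were not called by limma at an adjusted p below 0.05. Over all 16269 tested probe sets 23.1% fell and 23.1% rose, 46.3% in all. A gene that is steady over all arrays could not enter this test, so the 10 genes do not stand for the other 80. Without the filter, 3 members fell and 2 rose out of 90, against 11.2% and 11.6% of all probe sets, 22.8% in all.

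The gene with the lowest difference was *rps15.L*, which encodes a protein in the head of the small subunit. Its log2 values were 13.15, 13.28 and 13.41 on the rxLeptin arrays, against 13.77, 13.60 and 13.46 on the saline arrays. All rxLeptin arrays lay below all saline arrays, with a narrow gap between rxLeptin array 3 and saline array 3. It fell by 0.34 (standard error 0.097, adjusted p = 0.0157) in the weighted limma fit. The S copy, *rps15.S*, had 5.82, 5.78 and 5.90 on the rxLeptin arrays and 6.09, 6.01 and 5.91 on the saline arrays, a difference of -0.17 in plain means that was too even for the filter. A probe set annotated to both copies had a smaller difference of -0.11, also without overlap.

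*rps10.S* encodes a protein near the entry of the mRNA channel that in mammals is tagged with ubiquitin when ribosomes collide. It had 14.22, 14.16 and 14.17 on the rxLeptin arrays, against 14.54, 14.41 and 14.31 on the saline arrays. The groups did not overlap, and the gene fell by 0.24 (standard error 0.092, adjusted p = 0.0479). *rps10.L* had 13.85 on each of the rxLeptin arrays, against 14.15, 13.95 and 14.01 on the saline arrays. Its difference of -0.18 was likewise without overlap, and the gene was not tested after the filter.

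*rps7.L*, a small subunit gene that is mutated in some humans with Diamond-Blackfan anemia, had the second lowest difference of the members. Its values were 12.79, 12.82 and 12.77 on the rxLeptin arrays, against 13.15, 12.99 and 13.16 on the saline arrays, a difference of -0.31 in plain means. Although the groups lay well apart, the weighted fit gave -0.20 with an adjusted p of 0.0844, since it relied mostly on saline array 2, the lowest of the 3 saline values.

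*rpl30.L* and *rpl30.S* encode a large subunit protein that in yeast also binds and represses its own transcript. The L copy, which fell with an adjusted p of 0.0249, had plain means that differed by -0.29 without overlap. The S copy had 14.38, 14.33 and 14.38 on the rxLeptin arrays, against 14.66, 14.53 and 14.46 on the saline arrays. This difference of -0.19 was not tested after the filter, but a further probe set of *rpl30.S*, with 13.37, 13.42 and 13.58 on the rxLeptin arrays and 13.88, 13.71 and 13.70 on the saline arrays, did fall (log2 fold change -0.29, adjusted p = 0.0261).

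*rps4x.S*, an X-linked gene in humans, encodes a protein of the small subunit. It was the only member whose representative probe set rose, by 0.44 (standard error 0.11, adjusted p = 0.00641) in the weighted fit. The values were 10.34, 10.28 and 10.36 on the rxLeptin arrays, against 10.01, 9.80 and 10.39 on the saline arrays. The groups overlapped, since saline array 3 was above every rxLeptin array, and the plain means differed by 0.26. With saline array 2 left out the fold change was 0.097, and with saline array 1 left out it was 0.20. A probe set annotated to both copies of *rps4x* had a difference of 0.065 with overlap.

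These 4 calls depended on the weighting of the arrays. The array weights were 1.20, 4.27 and 0.60 for rxLeptin arrays 1, 2 and 3 and 0.30, 3.96 and 0.27 for saline arrays 1, 2 and 3. Without weights limma called 0 of the 10 tested genes, of which 0 had an unadjusted p below 0.05, and the adjusted p of the 4 genes lay between 0.206 and 0.334. The falls of *rps15.L* and *rpl30.L* kept their call without rxLeptin array 3 and lost it without any other single array. The highest adjusted p was 0.530 for *rps15.L* and 0.554 for *rpl30.L*, both without saline array 2. *rps10.S* lost its call with each array left out in turn, at adjusted p between 0.0721 and 0.606. *rps4x.S* lost its call without saline array 1, 2 or 3, at adjusted p of 0.617, 0.855 and 0.0937. With neither weights nor filter, 4 of the 90 genes (*rpl30.L*, *rps10.S*, *rps15.L* and *rps7.L*), or 4.44%, had an unadjusted p below 0.05, all of them lower, against 18.8% of all represented genes.

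**Figure D3:**
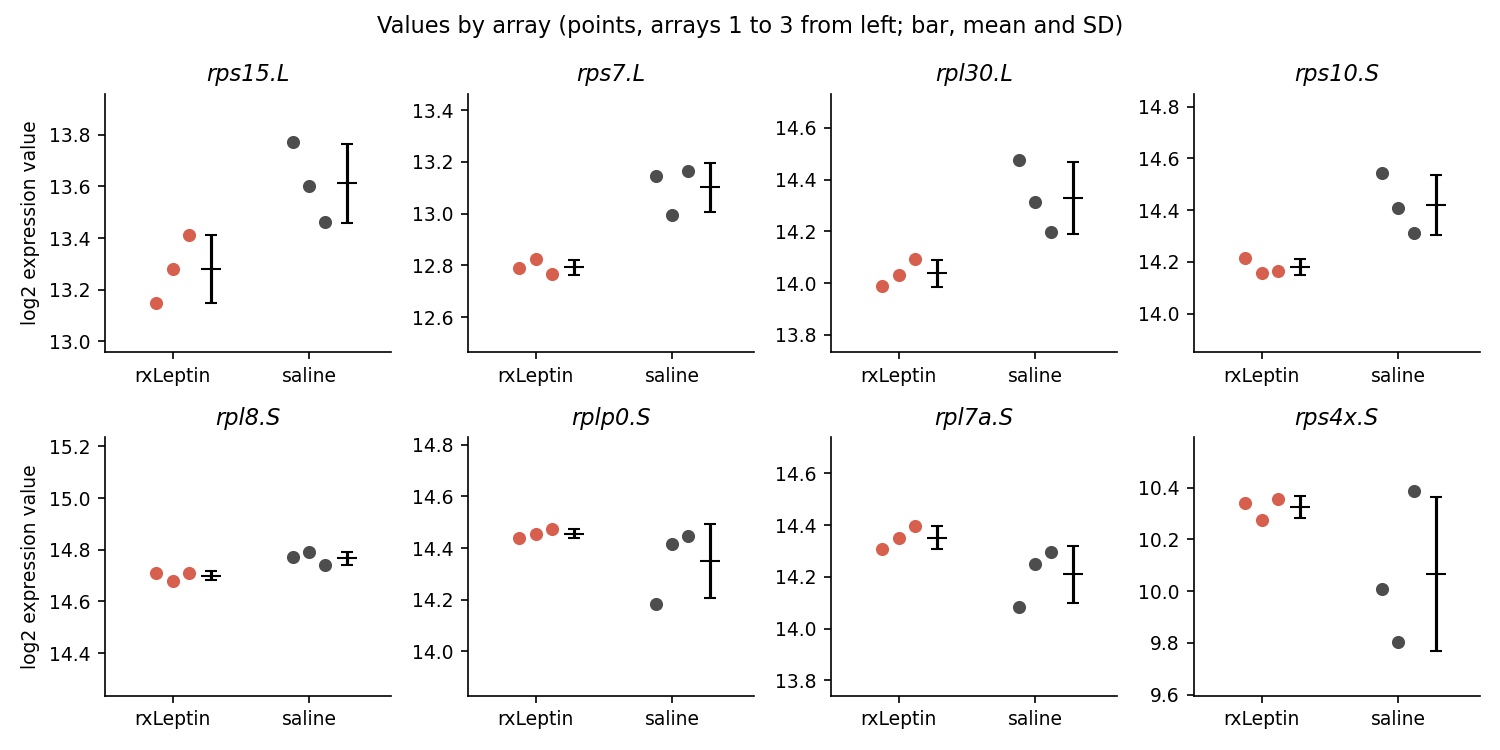
Log2 expression value (y axis) on each rxLeptin and each saline array (x axis) for 8 ribosomal protein genes, with the group mean and SD as a bar. Each panel spans the same range of 1 log2 unit. In *rps15.L*, *rps7.L*, *rpl30.L*, *rps10.S* and *rpl8.S* all rxLeptin arrays are lower, in *rpl7a.S* all are higher, and in *rplp0.S* and *rps4x.S* the groups overlap.

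In the large subunit, 42 of the 49 genes were lower and 7 were higher, with a median difference of -0.091. In 24 of them the rxLeptin arrays lay below all saline arrays, and in 2 above. Among all represented genes 56.5% were lower, 16.6% lower without overlap and 11.1% higher without overlap. After *rpl30.L*, the lowest difference belonged to *rpl29.L*, whose protein in mice is not needed for survival but for normal growth. It had 13.89, 13.88 and 13.92 on the rxLeptin arrays, against 14.34, 14.03 and 14.06 on the saline arrays. *rpl24.L*, for a protein that bridges the subunits, had a difference of -0.20, and *rpl22.S*, for an RNA-binding protein needed for T cell development in mice, had -0.20, both without overlap.

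Genes for proteins along the tunnel through which the new chain leaves showed small differences. The tunnel wall genes *rpl4.L* and *rpl4.S* had -0.096 and -0.13, both without overlap. *rpl17.L* and *rpl17.S* had -0.13 and -0.041, and *rpl39.L* and *rpl39.S* had -0.064 and -0.15, with overlap in all of these. *rpl23a.S*, at whose protein the signal recognition particle docks, had -0.13 without overlap, and its neighbour at the tunnel exit, *rpl35.L*, had -0.081 with overlap.

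*rpl5* and *rpl11* encode the proteins that carry the 5S ribosomal RNA and that in mammals restrain MDM2 when ribosome assembly is disturbed. Their differences were among the smallest, at -0.036 in *rpl5.L* and -0.013 in *rpl5.S*, with -0.045 in *rpl11.S*. Even so, the rxLeptin arrays of *rpl5.L* (14.25, 14.25 and 14.27) and of *rpl11.S* (14.34, 14.35 and 14.38) lay just below the saline arrays (14.27, 14.30 and 14.30 for *rpl5.L*, 14.44, 14.39 and 14.39 for *rpl11.S*). *rpl8*, whose protein lies near the site of peptide bond formation, served as the reference gene for RTqPCR in the study. The study named no copy and reported the gene as unaffected by rxLeptin, without showing those values. On the arrays *rpl8.S* had a difference in plain means of -0.068 without overlap, which is smaller than the median difference of the members. It was too even for the filter, and the weighted limma fit without the filter did not call it (adjusted p = 0.275). RTqPCR is another assay, and the 2 readings were not compared by a test.

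The genes that went the other way in the large subunit were few. *rpl7a.S* had 14.31, 14.35 and 14.40 on the rxLeptin arrays, against 14.08, 14.25 and 14.29 on the saline arrays, with no overlap and a difference of 0.14. *rpl3.L*, for a protein close to the catalytic centre, had a difference of 0.060 with overlap, and all 4 of its further probe sets had differences between 0.00039 and 0.29. The representative had 14.36, 14.31 and 14.28 on the rxLeptin arrays, against 14.14, 14.25 and 14.38 on the saline arrays. The probe set with 0.29 had 13.85, 13.86 and 13.85, against 13.12, 13.65 and 13.91. Saline array 1 was the lowest array in both, and saline array 3 the highest. *rpl10.S*, for a protein that joins the subunit last, had a difference of 0.028.

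The stalk proteins recruit the elongation factors to the ribosome. *rplp0.S*, the base of the stalk, had 14.44, 14.45 and 14.47 on the rxLeptin arrays, against 14.18, 14.42 and 14.45 on the saline arrays, a difference of 0.11 with overlap. Only saline array 1 stood far from the rest in this gene. *rplp2.L* had 14.24, 14.18 and 14.25 on the rxLeptin arrays and 14.51, 14.27 and 14.27 on the saline arrays. *rplp2.S* had 13.55, 13.53 and 13.58 on the rxLeptin arrays and 13.82, 13.62 and 13.62 on the saline arrays. Both copies of *rplp2* differed by -0.13 in plain means without overlap, while *rplp1.L* differed by -0.075 with overlap. None of the 4 stalk genes passed the filter.

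In the small subunit, 28 of the 33 genes were lower and 5 were higher, with a median of -0.096. The rxLeptin arrays lay below all saline arrays in 13 genes and above them in 1, beside 16.6% and 11.1% of all represented genes. The share of all represented genes with a lower mean was 56.5%. *rps14.S* and *rps19.S*, which in humans are tied to the 5q- syndrome and to Diamond-Blackfan anemia, had differences of -0.077 and -0.076. In *rps14.S* the values were very even, with 14.74, 14.74 and 14.75 on the rxLeptin arrays, against 14.84, 14.81 and 14.81 on the saline arrays. *rps12.L* and *rps12.S* had -0.12 and -0.11, also without overlap, but their further probe sets were higher. *rps3a.L* and *rps20.S*, for 2 further proteins of the subunit, each had -0.12 with overlap.

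*rps6* encodes the substrate of the S6 kinases, which act downstream of mTOR. Its L copy had 8.40, 8.28 and 8.26 on the rxLeptin arrays, against 8.51, 8.23 and 8.63 on the saline arrays, which overlapped (plain difference -0.14, limma log2 fold change 0.025, adjusted p = 0.849). The signs of the plain and of the weighted difference were thus opposite in this gene. A probe set annotated to both copies of *rps6* had 14.55, 14.50 and 14.50 on the rxLeptin arrays and 14.60, 14.60 and 14.58 on the saline arrays, a difference of -0.077 without overlap.

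*rpsa*, which encodes a small subunit protein also known as the laminin receptor, was the only one of the 17 names with both copies in which both were higher in plain means. *rpsa.S* had 14.55, 14.57 and 14.60 on the rxLeptin arrays, against 14.47, 14.44 and 14.53 on the saline arrays. These did not overlap, and the difference was 0.093. *rpsa.L* differed by 0.050 with overlap, with 13.89, 13.91 and 14.02 on the rxLeptin arrays, against 13.77, 13.94 and 13.96 on the saline arrays. In the weighted fit without the filter the log2 fold change of *rpsa.L* was -0.0087, of opposite sign. The other small subunit genes that were higher were *rps3.L* with 0.033 and *rps29.S* with 0.011, beside *rps4x.S*. The further probe sets of *rps3.L* and *rps29.S* were lower. *rps2.L* was level, at -0.0014.

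The representative probe sets of the paralogs differed in direction. *rpl22l1.L*, the paralog of *rpl22*, had 13.30, 13.40 and 13.52 on the rxLeptin arrays, against 13.91, 13.49 and 13.55 on the saline arrays, a difference of -0.24 with overlap. *rpl3l.L*, which mammals express in skeletal muscle and heart, had low values of 4.31, 4.17 and 4.34 on the rxLeptin arrays, against 4.63, 4.38 and 4.45 on the saline arrays. The skeletal muscle markers were lower as well, as given above for the whole list. The part of muscle RNA in the values of *rpl3l.L* was not tested. *rpl7l1.L* had a difference of 0.14 with overlap (limma adjusted p = 0.370), and *rps28p9.S* had -0.091 with overlap. The further probe set of *rpl7l1.L* had -0.17, and that of *rps28p9.S* had 0.074.

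Proteins with counterparts in bacteria were also set beside those without, a split made after the values had been seen. The 38 genes of the bacterial families had a median difference of -0.067, with 30 lower and 13 lower without overlap. The 48 genes of families that bacteria lack had a median of -0.11, with 43 lower and 26 lower without overlap. Of all represented genes 56.5% were lower and 16.6% were lower without overlap. In the large subunit the medians were -0.067 over 19 genes with bacterial counterparts and -0.11 over 30 without. In the small subunit they were -0.072 over 18 genes and -0.10 over 15. Without saline array 1 the medians were -0.054 over the 38 genes with bacterial counterparts and -0.060 over the 48 without. In the large subunit they were then -0.051 and -0.070, and in the small subunit -0.065 and -0.075. Most of the gap between the 38 and the 48 genes thus rested on saline array 1. No test was made of the difference between these families. *rps15.L*, the lowest of all members, belongs to a family that bacteria share.

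Further probe sets of the same genes gave a second reading. Of the 90 genes, 34 had more than 1 probe set, at most 5. Of the 59 probe sets that were not the representative one, 45 were lower, with a median difference of -0.13, and 43 had the same sign as the representative. All probe sets were lower in 20 of the 34 genes, all were higher in 1 (*rpl3.L*), and the sign was mixed in 13. Of all 149 probe sets 121 were lower, against a share of 55.3% over all probe sets that are no controls. Of the 149, 27 passed the filter, or 18.1%, against 16269 of all 32539 probe sets that are no controls. Among these 27 member probe sets 12 fell and 1 rose, beside 23.1% in each direction over all tested probe sets. No gene had probe sets that were called in opposite directions. The 27 were kept because they varied, so they do not stand for the rest of the 149. In the fit without the filter, 10 fell and 3 rose out of 149, against 11.2% and 11.6% of all probe sets.

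The probe set mattered most in a few genes. The representative probe set of *rpl36a.L* had a difference of -0.13 and was too even for the filter, but 3 further ones fell, by 0.49 (adjusted p = 0.00227), 0.36 (adjusted p = 0.0100) and 0.36 (adjusted p = 0.0168). The first of these had 10.05, 9.85 and 9.92 on the rxLeptin arrays, against 10.39, 10.39 and 10.28 on the saline arrays. *rplp0.S* had a further probe set with 6.95, 7.13 and 7.26 on the rxLeptin arrays and 7.80, 7.26 and 7.30 on the saline arrays, a difference of -0.34 against 0.11 in the representative one. In *rps3.L* the representative probe set had 0.033, and the other 2 had -0.23 and -0.24 without overlap. *rps12.L* had a further probe set with 7.24, 7.31 and 7.39 on the rxLeptin arrays and at most 7.20 on the saline arrays, higher by 0.21 without overlap, which rose in the fit without the filter (adjusted p = 0.0229). The further probe set of *rps12.S* had a difference of 0.099 with overlap. The direction of *rplp0.S*, *rps3.L*, *rps12.L* and *rps12.S* is therefore not settled by the array. Signs also differed between the probe sets of *rpl14.S*, *rpl24.L*, *rpl36a.L*, *rpl3l.L*, *rpl7l1.L*, *rps19.S*, *rps2.L*, *rps28p9.S* and *rps29.S*. The further probe set of *rpl24.L* had 0.057, and those of *rps29.S* had -0.040 and -0.11.

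Other names with a further probe set that fell were *rpl38.L*, whose protein in mice is needed for the translation of some *Hox* mRNAs (weighted log2 fold change -0.36), *rpl18.S* (-0.46), *rps19.S* (-0.33), *rps9.S* (-0.25) and *rpl7a.L* (-0.27). The plain differences of these probe sets were -0.37 for *rpl38.L*, -0.17 for *rpl18.S*, -0.18 for *rps19.S*, -0.22 for *rps9.S* and -0.18 for *rpl7a.L*, and the arrays of the groups overlapped in all but that of *rps9.S*. In the same order, their mean signals were 5.11, 5.27, 12.41, 8.97 and 6.69. The representative probe sets of these genes had means above 13, with differences of -0.046, -0.12, -0.076, -0.067 and -0.010. Probe sets with low signal may follow background as well as their own transcript, which was not tested. A further probe set of *rpl27.S* had 9.89, 8.95 and 6.54 on the rxLeptin arrays, against 9.45, 9.90 and 9.73 on the saline arrays. Its difference of -1.23 rested on rxLeptin array 3, and it was not called (adjusted p = 0.0582). Some of the probe sets of these genes can bind more than 1 transcript. With all probe sets of that kind removed, 70 genes remained, with a median of -0.12 and 59 of them lower.

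Probe sets annotated to several copies, or to a ribosomal protein gene together with a second symbol, stood outside the rule, and there were 18 of them. Of these, 15 were lower and 3 higher (*rpl4*, *rps3* and *rps4x*), with a median difference of -0.073, and 11 were lower without overlap, beside 13.4% of all probe sets that are no controls. None of the 18 varied enough to be tested. *fau.L*, which encodes a ribosomal protein fused to a ubiquitin-like protein, was not taken in by the rule either and had 14.42, 14.41 and 14.43 on the rxLeptin arrays, against 14.62, 14.49 and 14.51 on the saline arrays.

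L and S copies were compared within arrays, as the value of the L copy minus that of the S copy. Both copies were represented for 17 ribosomal protein names among 2009 names in the whole table. In 13 of the 17 both copies were lower on the rxLeptin arrays, in 1 both were higher, and in 3 (*rpl29*, *rpl7a* and *rps3*) they differed in sign. The share of all 2009 pairs with both copies lower was not counted. In some pairs, such as *rpl30* and *rplp2*, a probe set can bind more than 1 transcript, so the copies may not be separate readings. limma called a treatment effect on the L minus S difference in 1 of the 17, *rpl29*, and in 30.9% of all 2009 pairs.

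For *rpl29* the L minus S difference was 8.07, 7.95 and 7.95 on the rxLeptin arrays, against 8.69, 8.36 and 8.28 on the saline arrays, without overlap (log2 fold change -0.40, standard error 0.072, adjusted p = 0.00892). The L copy was lower and the S copy, at 5.82, 5.93 and 5.96 on the rxLeptin arrays against 5.65, 5.67 and 5.78 on the saline arrays, was higher. A probe set with low signal such as that of *rpl29.S* may follow background as well as its own transcript, which was not tested. The call was lost without array weights (adjusted p = 0.221) and without rxLeptin array 2 (0.0632), saline array 1 (0.507), saline array 2 (0.617) or saline array 3 (0.0530). The other 16 pairs were not called, among them *rps15*, with a plain difference of -0.16 in L minus S (adjusted p = 0.166), and *rpl7a*, with -0.15 (adjusted p = 0.158).

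**Figure D4:**
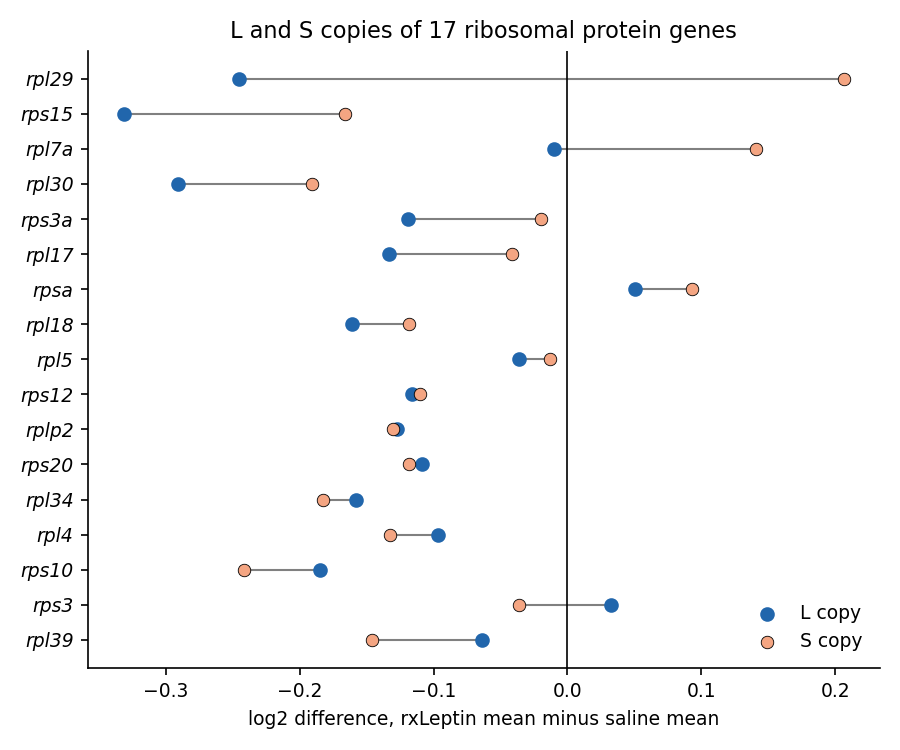
Difference between the group means, rxLeptin minus saline, on the log2 scale (x axis) for the L copy and the S copy of 17 ribosomal protein names (y axis, in order of the treatment effect on L minus S). In 13 names both points lie to the left of 0, and in *rpl29*, *rpl7a* and *rps3* the points lie on opposite sides.

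Genes that make or control ribosomes were examined beside their proteins. Among 102 ribosome biogenesis genes, which process ribosomal RNA and assemble the subunits, 62 were lower and 40 higher, with a median of -0.072. That is 60.8% lower, beside 56.5% of all represented genes. Of 56 tested, 13 rose and 21 fell, where 23.1% of all tested probe sets rose and 23.1% fell. *exosc7.S*, a subunit of the RNA exosome, fell by 0.70, with 8.32, 8.38 and 8.37 on the rxLeptin arrays, against 9.48, 9.05 and 8.90 on the saline arrays. *pop4.L*, a subunit of the enzymes that cut precursor tRNA and rRNA, rose by 0.81, *utp11.L*, a component of the small subunit processome, by 0.77, and the exonuclease gene *xrn2.S* by 0.69. In these 3 genes saline array 3 overlapped the rxLeptin arrays, and in *utp11.L* it was above all of them. Without array weights the rise was 0.65 in *pop4.L* and 0.49 in *utp11.L*.

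For RNA polymerase I, which transcribes ribosomal RNA, 9 genes had a median of -0.026. Of these, 5 were lower and 4 higher, where 56.5% of all represented genes were lower. Of 4 tested 1 rose and 1 fell, beside 23.1% in each direction over all tested probe sets. The catalytic subunit gene *polr1b.L* rose by 0.49, with 7.99, 7.93 and 8.31 on the rxLeptin arrays, against 7.10, 7.49 and 7.82 on the saline arrays. *polr1e.L* fell by 0.32, with 10.22, 9.99 and 10.07 on the rxLeptin arrays, against 10.65, 10.35 and 10.32 on the saline arrays. The other 2 tested genes were not called.

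Other genes with TOP mRNAs were split in direction. Of 25 such genes 14 were lower and 11 higher, with a median of -0.017. The share that was lower, 56%, was close to the 56.5% of all represented genes. Of 10 tested 5 rose and 5 were not called, beside rises in 23.1% of all tested probe sets. *hnrnpa1.L* and *hnrnpa1.S*, for an RNA-binding protein of splicing, rose by 0.53 and 0.42 without overlap. The L copy had 13.46, 13.48 and 13.53 on the rxLeptin arrays, against 12.62, 12.95 and 13.26 on the saline arrays. *eef1d.L*, for a subunit of elongation factor 1, rose by 0.34 and the chaperonin gene *cct6a.S* by 0.31, both with overlap.

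Genes of mTOR signaling and of the control of TOP mRNAs went both ways. Of 33, 15 were lower and 18 higher, with a median of 0.033, where 56.5% of all represented genes were lower. Among 21 tested 8 rose and 5 fell, again beside 23.1% in each direction. *rps6kb1.S*, which encodes an S6 kinase, fell by 0.50, with 9.34, 9.35 and 9.25 on the rxLeptin arrays, against 10.02, 9.85 and 9.50 on the saline arrays. *akt1s1.S*, an inhibitor of mTOR complex 1, rose by 0.59 with overlap. The copies of *mknk2*, a kinase of the cap-binding factor eIF4E, were called in opposite directions, with a rise of 0.55 in *mknk2.S* and a fall of 0.44 in *mknk2.L*, where the arrays overlapped.

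The ribosomes of mitochondria have their own proteins, and 36 of the 52 genes were lower, with a median of -0.14. The share that was lower, 69.2%, stands beside 56.5% of all represented genes. In 18 of them the rxLeptin arrays lay below all saline arrays, and in 1 above, where all represented genes had shares of 16.6% and 11.1%. Of 31 tested, 13 fell and 5 rose, beside 23.1% in each direction. *mrpl32.L* fell by 0.59, with 7.39, 7.48 and 7.55 on the rxLeptin arrays, against 8.52, 8.02 and 8.14 on the saline arrays. *mrpl11.L* fell by 0.57 and *mrps16.L* by 0.49, both without overlap, and *mrpl20.L* rose by 0.61 with overlap. The calls of all these lists were lost in the limma fit without array weights, where 0 of all tested probe sets passed and 4262 had an unadjusted p below 0.05. The 18 genes named from the lists had adjusted p between 0.000379 and 0.0239 in the weighted fit, and all lost their call without saline array 1 and without saline array 2, 5 without rxLeptin array 2, 4 without saline array 3, 2 without rxLeptin array 1 and 1 without rxLeptin array 3.

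**Figure D5:**
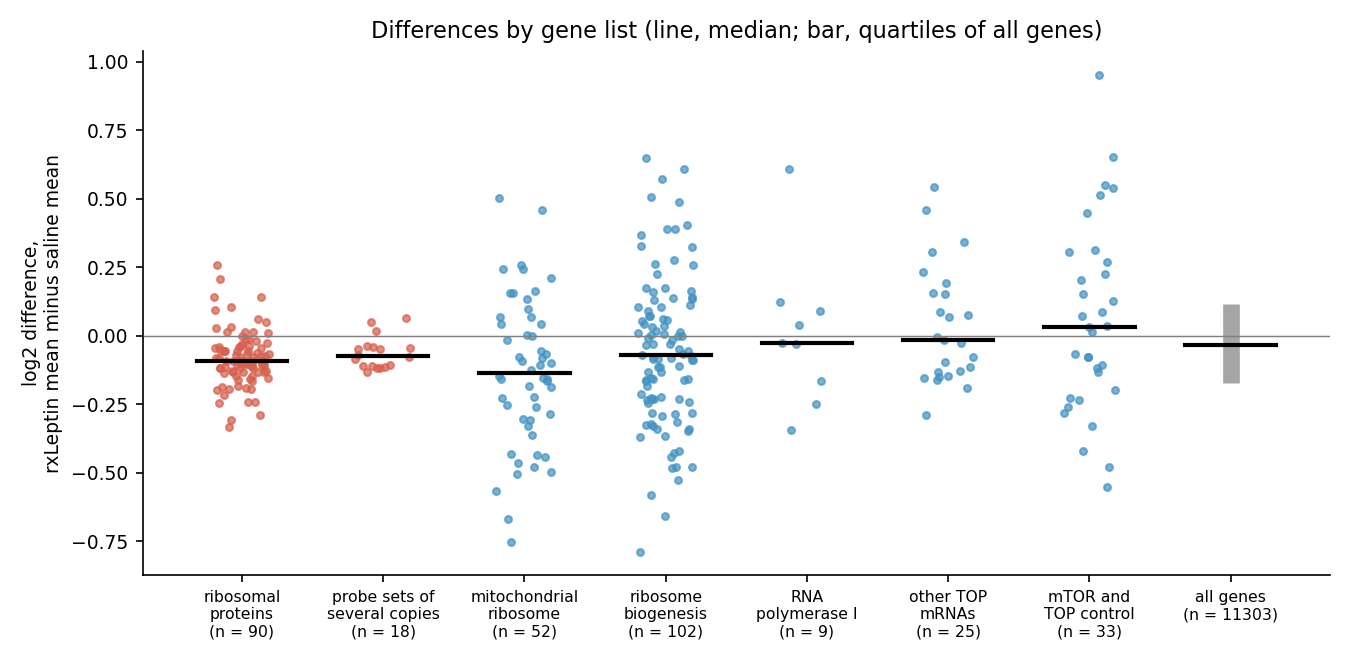
Difference between the group means, rxLeptin minus saline, on the log2 scale (y axis) for each gene or probe set of 7 lists (x axis), with the median of each list as a line and the quartiles of all 11303 genes as a grey bar. The ribosomal proteins have a median of -0.092, with 14 of the 90 above 0. The probe sets of several copies have a median of -0.073 and the mitochondrial ribosome of -0.14. The remaining lists have medians between -0.072 and 0.033 and spread more widely than the ribosomal proteins.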

How the data were processed

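Log2 expression values of 6 Affymetrix GeneChip *Xenopus laevis* Genome 2.0 arrays were used as deposited; the authors made them with Robust Multichip Average (affy). Replicates are numbered 1 to 3 within a group. Array medians lay between 7.30 and 7.35, and precision is limited by 3 arrays per group. The members and gene lists were chosen with earlier results of these data known.

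The 96 control probe sets were removed, and probe sets with an interquartile range above the median of 0.173 were fitted with limma 3.58.1 (R 4.3.3) with default array weights, eBayes and Benjamini-Hochberg adjustment at 0.05 over all 16269 tested probe sets. The filter's cut-off is not given in the sources used here. The weight estimation warned that it had not converged. Weighted fold changes come from this fit, and plain differences are those of unweighted means. L minus S differences were fitted with the same weights over 2009 pairs. The fit was tested on simulated data in which each probe set had the same spread on every array. That test therefore does not bear on calls that depend on the array weights.

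Named were the called members with the largest changes, *rpl8*, the stalk genes, *rps6*, *rpsa*, called copy pairs, paralogs and up to 4 called genes of each ribosome list. Other members were named after their values were seen, to describe their subunit. The copy *rpl8.L* and *rps27a* were not analysed here. Names came from the platform annotation, updated through a RefSeq table of Xenopus_laevis_v10.1, which matched 15384 of 15495 probe sets with 1 symbol and 88 of the 90 members. Figures used matplotlib 3.10.9 in Python 3.11.15.

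Alternatives covered the filter, weights, scaling, moderation, probe sets, the *actin* gap as a covariate and each array left out in turn.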

Additional observations from a re-analysis of the deposited data

How the results depend on the processing

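The median of the members stayed below 0 under every setting tried, but the calls did not hold. Single members could change sign, as *rps6.L* did between the plain and the weighted difference. The median difference of the 90 genes was -0.045 with the *actin* gap as a covariate and lay between -0.11 and -0.057 with each array left out in turn. The count of members with every rxLeptin array below every saline array lay between 40 and 62 with each array left out, and it was 62 without rxLeptin array 3 and 53 without saline array 3. With fewer arrays the share of all represented genes was also above its 16.6%, between 18.5% and 28.3%, with 23.7% without rxLeptin array 3 and 28.3% without saline array 3. Over all tested probe sets, 0 rose and 0 fell without array weights (4262 had an unadjusted p below 0.05), with each array centred on its median (3810), with the *actin* covariate (847), with neither filter nor weights (6037), without saline array 1 (1884) and without saline array 2 (1892). Gene-by-gene weights gave 2382 rises and 1612 falls. With each array left out, rises lay between 0 and 4033 and falls between 0 and 4290, with 2446 and 1754 without rxLeptin array 2 and 1884 and 800 without saline array 3.

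Among the members, 2 rose without the filter, without probe sets that can bind several transcripts, and with the mean over all probe sets of a gene. The number was 0 without weights, with centred arrays, with the *actin* covariate and with neither filter nor weights, and 0 to 1 with each array left out. The number that fell was 0 without weights, with gene-by-gene weights, with centred arrays, with the *actin* covariate and with neither filter nor weights (4 had an unadjusted p below 0.05). It was 9 without probe sets that can bind several transcripts, where 4186 of all tested probe sets fell and 3680 rose. With the mean over all probe sets of a gene it was 8, where 4490 of all tested entries fell and 3832 rose. The number of members tested under these 2 settings was not counted. With the most variable probe set as representative 10 of 23 tested members fell, beside 23.1% of all tested probe sets. That choice used the spread over the same 6 arrays, so it brought more members into the test by design. With each array left out the number of members that fell lay between 0 and 2. Of the 17 copy pairs, 0 were called without weights, with centred arrays and with the *actin* covariate, 2 without probe sets that can bind several transcripts, and 0 to 1 with each array left out. The settings without filter and weights together, and all those for the count of members without overlap, were chosen after seeing the data. The cause of these shifts was not tested. No paired analysis was possible because the labels number the arrays 1 to 6 and share no replicate number between the groups.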
